A study of Mus musculus with 8 samples.

Results

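Selectin ligand genes of regulatory T (Treg) cells were followed across 2 genotypes with and without stimulation: Selplg, which encodes PSGL-1, and Fut7, Gcnt1, St3gal4 and St3gal6, which encode glycosyltransferases that build the sugar on it. These 5 genes were taken by symbol from a table of 52459 genes, and all 5 passed the filter on low values, with 15419 genes tested in all. RNA was sequenced from C57BL/6 mouse cells that the labels call Foxp3+CD25+ Treg cells, in 8 libraries, 2 for each of 4 groups. The groups were WT unstimulated (replicates 3 and 4), WT stimulated, and unstimulated and stimulated cells with Foxp3-YFPcre and floxed alleles (fl/fl) of both Stim1 and Stim2, with replicates 1 and 2 in each of these 3 groups. The labels print the alleles as Stim1 fl/f Stim2 fl/fll. Stimulation was 16 h in culture on plate-bound anti-CD3/CD28 at 1 µg/ml. Both genotypes were sorted as CD4+CD25hi cells from spleen and lymph nodes of female mice, pooled for each sample and heterozygous for Foxp3-YFPcre, YFPcre-negative for WT and YFPcre-positive for Stim1/2-deficient cells. WT cells thus came from floxed mice too, and the Cre was driven by Foxp3. Genotype and expression of the Foxp3-YFPcre allele cannot be told apart, nor can stimulation and sequencing lane, since unstimulated libraries lie on lane 4 and stimulated ones on lane 1. The study left unstimulated cells untreated, and if they had no time in culture, culture and stimulation cannot be told apart either. The age of the mice is not given in the sources used here.

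PSGL-1 is a mucin-like protein on leukocytes that binds selectins once its O-glycans carry the tetrasaccharide sialyl Lewis x. Gcnt1 starts the core 2 branch of the O-glycan, St3gal4 and St3gal6 add sialic acid to galactose on that branch, and Fut7 adds the fucose that completes the epitope. T cells transcribe Selplg broadly, whereas Fut7 and Gcnt1 rise as they are activated and become able to roll on inflamed endothelium. STIM1 and STIM2 sense calcium in the endoplasmic reticulum and open CRAC channels, and the calcium that enters activates NFAT transcription factors. The comparison of genotypes asks which transcripts of Treg cells differ when Stim1 and Stim2 are deleted.

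A library held 11851853 to 16306540 reads on genes. Values are normalized counts, reads per gene divided by 1 size factor per library, and 1 read equals 0.759 to 1.48 of them. The mitochondrial rRNA mt-Rnr2 took 9.78% to 22.1% of reads. Of the deleted genes, Stim1 had more counts in libraries of unstimulated cells labelled Stim1/2-deficient (1538 and 1868) than in WT (1139 and 1377; 0.44 on the log2 scale, limma adjusted p = 0.236), and Stim2 had 904 and 744 against 906 and 908 (-0.15, limma adjusted p = 0.721). After stimulation Stim1 had 552 and 642 against 645 and 673 (-0.15, limma adjusted p = 0.807) and Stim2 620 and 696 against 665 and 782 (-0.13, limma adjusted p = 0.827). Counts over a whole gene do not isolate floxed exons, so in these data genotype rests on the labels, and these libraries are called labelled libraries here. For YFPcre-positive Treg cells of such female mice, the study reports a loss of store-operated calcium entry relative to YFPcre-negative ones. The T cell marker Cd3e had 2508 to 3424 normalized counts in all 8. The 8 Treg and T cell markers summed to 96058 and 89150 in unstimulated WT libraries and to 43458 and 50496 in labelled ones, with Foxp3 at 10001 and 8159 against 4947 and 4258 (log2 fold change -0.98, limma adjusted p = 0.0591). Labelled unstimulated replicate 1 stood furthest apart in transcripts of other cells. In it 15 macrophage and monocyte markers summed to 12369 normalized counts, against 450 to 2037 in the other 7 libraries. The 12 B cell markers summed to 5346 in it and to 260 to 2208 in the others. Labelled unstimulated replicate 2 was raised too. Both labelled libraries lay above both unstimulated WT libraries for 11 of 13 tested macrophage and monocyte markers and 10 of 12 B cell markers. Mrc1 had 346 normalized counts in replicate 2, against 14.0 and 5.91 in WT. Axl and Itgam were lower in replicate 2 than in WT. Axl, at 813 and 827, made up most of the WT macrophage and monocyte sums of 1350 and 1343. The macrophage marker Csf1r and the B cell marker Cd79a were above 0 in every library, but with 1 read and 3 reads in WT stimulated replicate 2. C1qa and C1qc were at 0 in both unstimulated WT libraries, and Mrc1 and C1qa were at 0 in every stimulated library.

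The sequences directly upstream of annotated starts of Fut7, Gcnt1 and St3gal6 are shown because Fut7 and Gcnt1 were the members with lower counts in labelled cells and St3gal6 the member with the largest opposite difference. Each is 250 bases of GRCm38.p6 from RefSeq, 5′ to 3′ on the strand of the gene. Capitals mark the NFAT core GGAAA, or TTTCC where the core lies on the other strand. The Fut7 window is chr2:25422992-25423241 on the plus strand, the Gcnt1 window chr19:17372845-17373094 on the minus strand, and the St3gal6 window chr16:58524254-58524503 on the minus strand.
Fut7: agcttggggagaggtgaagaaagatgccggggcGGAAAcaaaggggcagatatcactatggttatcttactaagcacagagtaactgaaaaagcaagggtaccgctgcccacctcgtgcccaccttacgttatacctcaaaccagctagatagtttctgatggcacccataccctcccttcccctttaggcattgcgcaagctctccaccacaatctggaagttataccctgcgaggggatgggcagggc
Gcnt1: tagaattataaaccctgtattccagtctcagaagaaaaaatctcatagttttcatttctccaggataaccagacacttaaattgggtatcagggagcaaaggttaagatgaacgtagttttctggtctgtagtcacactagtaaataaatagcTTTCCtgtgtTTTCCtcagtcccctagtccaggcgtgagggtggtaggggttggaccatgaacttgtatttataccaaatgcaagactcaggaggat
St3gal6: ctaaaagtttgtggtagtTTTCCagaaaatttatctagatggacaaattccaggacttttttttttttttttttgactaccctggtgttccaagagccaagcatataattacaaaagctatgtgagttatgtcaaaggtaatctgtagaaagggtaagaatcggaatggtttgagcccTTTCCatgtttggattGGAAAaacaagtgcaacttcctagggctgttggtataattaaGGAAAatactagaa
The windows hold 1, 2 and 4 cores, and RefSeq gives these genes other starts too, whose windows hold 0 for Fut7, 1 and 1 for Gcnt1 and 4 for St3gal6. Both Fut7 windows lie within the span of the gene, 25422351 to 25426374, and the sequence before its 5′ end was not searched. The single St3gal4 window holds 0. GGAAA occurs in 55.6% of all 32851 windows of this length. Neither TGANTCA, the AP-1 site (in 6.75% of windows), nor AGGTGT, a T-box core (11.8%), occurs on either strand of the 8 windows of these 4 genes. No window of Selplg was at hand. Only the NFAT core was found, so no matches of different motifs overlap, and a match describes the sequence only.

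Per kilobase of exon, Selplg was the most abundant of the 5 transcripts in every group and the order below it differed between the groups. In unstimulated WT cells the mean levels were 350 normalized counts per kb for Selplg, 185 for Gcnt1, 92.1 for St3gal4, 17.3 for Fut7 and 11.9 for St3gal6, and no neighbours in this order overlapped between libraries. In unstimulated labelled cells the levels per kb were 366 for Selplg, 114 for St3gal4, 38.8 for Gcnt1, 33.3 for St3gal6 and 1.99 for Fut7. There Gcnt1 and St3gal6 overlapped, at 17.0 to 60.7 and 23.5 to 43.1 per kb, and the other neighbours did not. In stimulated WT cells the order was Selplg (473 per kb), St3gal4 (138), Gcnt1 (102), Fut7 (36.8) and St3gal6 (15.9), with no overlap. In stimulated labelled cells Selplg had 589 per kb and St3gal4 207, and Gcnt1 (28.6), St3gal6 (22.2) and Fut7 (12.6) overlapped each with the next.

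**Figure D1:**
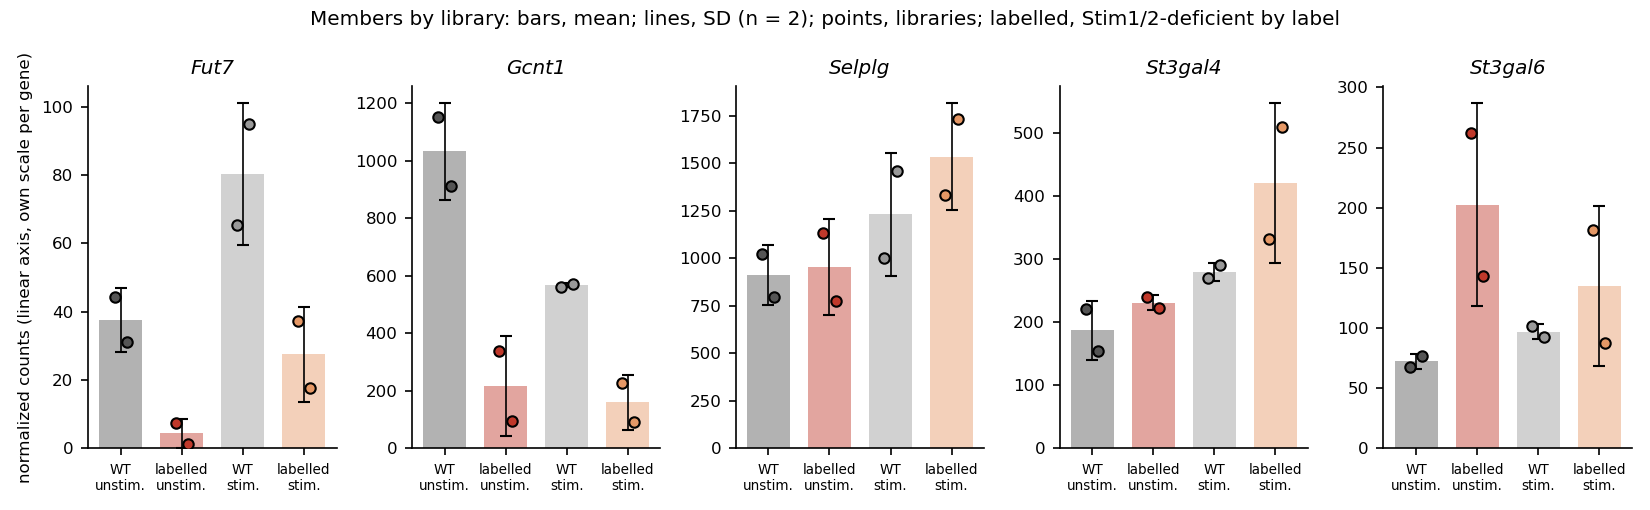
Normalized counts of the 5 genes (vertical axes, linear, a separate scale for each gene) in the 4 groups, with bars at the mean, lines of 1 SD and a point per library. Fut7 and Gcnt1 of labelled cells lie below WT in both states, from 1.34 to 37.3 and from 92.9 to 339, and Selplg overlaps.

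Fut7, on chromosome 2 from 25422351 to 25426374 (GRCm38.p6), encodes the fucosyltransferase of the last step of sialyl Lewis x. Before stimulation it was at 44.25 and 31.02 normalized counts in WT libraries, from 41 and 21 reads, and at 7.34 and 1.34 in labelled ones, from 7 reads and 1 read. Both labelled libraries lay below both WT libraries, and the mean was 8.67-fold lower. Summed, the rates of 62 and 8 reads differed 8.23-fold (95% exact conditional interval 3.93 to 19.9, counting error only). The log2 fold change after adding 1 was -3.11 (SE 0.70, 95% interval -4.66 to -1.56, limma adjusted p = 0.0365), and Fut7 was called lower, a call being over 1.5-fold at an adjusted p under 0.05. After stimulation Fut7 had 65.5 and 94.9 normalized counts in WT and 37.3 and 17.7 in labelled libraries. The groups did not overlap, the mean was 2.91-fold lower, and the log2 fold change of -1.58 (SE 0.70, 95% interval -3.12 to -0.03) was not called (limma adjusted p = 0.356).

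Gcnt1, on chromosome 19 from 17326141 to 17372844, encodes the core 2 branching enzyme. In unstimulated cells its transcript had 1151 and 914 normalized counts in WT and 339 and 94.8 in labelled libraries. Labelled replicates 1 and 2 thus differed more from each other than the WT libraries did, yet both lay below WT. The mean was 4.77-fold lower and the log2 fold change was -2.51 (SE 0.54, 95% interval -3.71 to -1.31, limma adjusted p = 0.0322), called lower. In stimulated cells Gcnt1 was at 563 and 572 in WT and at 226 and 92.9 in labelled libraries, a mean 3.55-fold lower with no overlap. The log2 fold change of -1.96 (SE 0.54, 95% interval -3.16 to -0.76) did not pass over all genes (unadjusted p = 0.00458, limma adjusted p = 0.143).

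Fut7 and Gcnt1 were 2 of 5 members called lower in unstimulated cells, where 3.35% of all tested genes were called lower and 1.38% higher, and 0 members were called higher. The all-gene split depended on scaling, with 517 genes lower and 213 higher as deposited, 353 and 241 at equal library totals and 332 and 286 at equal upper quartiles. It depended more on single libraries, with 8 lower and 0 higher without WT unstimulated replicate 3, 16 and 7 without replicate 4, 201 and 52 or 171 and 45 without WT stimulated replicate 1 or 2, and 924 and 374 without labelled unstimulated replicate 2. Both labelled libraries lay below both WT libraries for the same 2 members (27.1% of all genes) and above them for St3gal4 and St3gal6 (26.5% of all genes), so the lack of overlap by itself is common. In stimulated cells limma called 0 members, 0.11% of genes lower and 0.162% higher; 2 members, Fut7 and Gcnt1, had an unadjusted p under 0.05, edgeR called 0 members and DESeq2 called 1, Gcnt1. These all-gene counts, 17 lower and 25 higher, were 551 and 211 without labelled stimulated replicate 1, 174 and 157 or 173 and 148 without labelled unstimulated replicate 1 or 2, at most 1 in all without any other library, and 286 and 225 with DESeq2 on 8 libraries. Both labelled libraries were below WT for 2 members (23.1% of genes) and above for St3gal4 (24.3%). The direction for Fut7 and Gcnt1 was negative in every alternative, in both states. The calls in unstimulated cells were less firm: edgeR on recovered reads gave adjusted p = 0.0645 for Fut7 and 0.061 for Gcnt1, and DESeq2 on 8 libraries 0.0101 and 8.24e-05. Without WT unstimulated replicate 3 or 4 the limma adjusted p was 0.351 or 0.128 for Fut7 and 0.317 or 0.12 for Gcnt1, without WT stimulated replicate 1 or 2 it was 0.0718 or 0.0764 and 0.0677 or 0.0705, and without labelled unstimulated replicate 2 it was 0.0771 and 0.0575. Without labelled replicate 1, the library with the most macrophage and B cell transcripts, the log2 fold changes were larger, -4.02 for Fut7 (limma adjusted p = 0.0153) and -3.42 for Gcnt1 (0.00599). Labelled unstimulated replicate 2 also had more of most macrophage and B cell markers than WT, so leaving out replicate 1 does not remove such transcripts. In bulk RNA, fewer cells of a type and less RNA per cell cannot be told apart. Of the 8 Treg and T cell markers, Ctla4 and Ikzf2 were called lower in unstimulated cells as well (log2 fold changes -1.79 and -1.13), and their part in the Fut7 and Gcnt1 results was not tested.

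**Figure D2:**
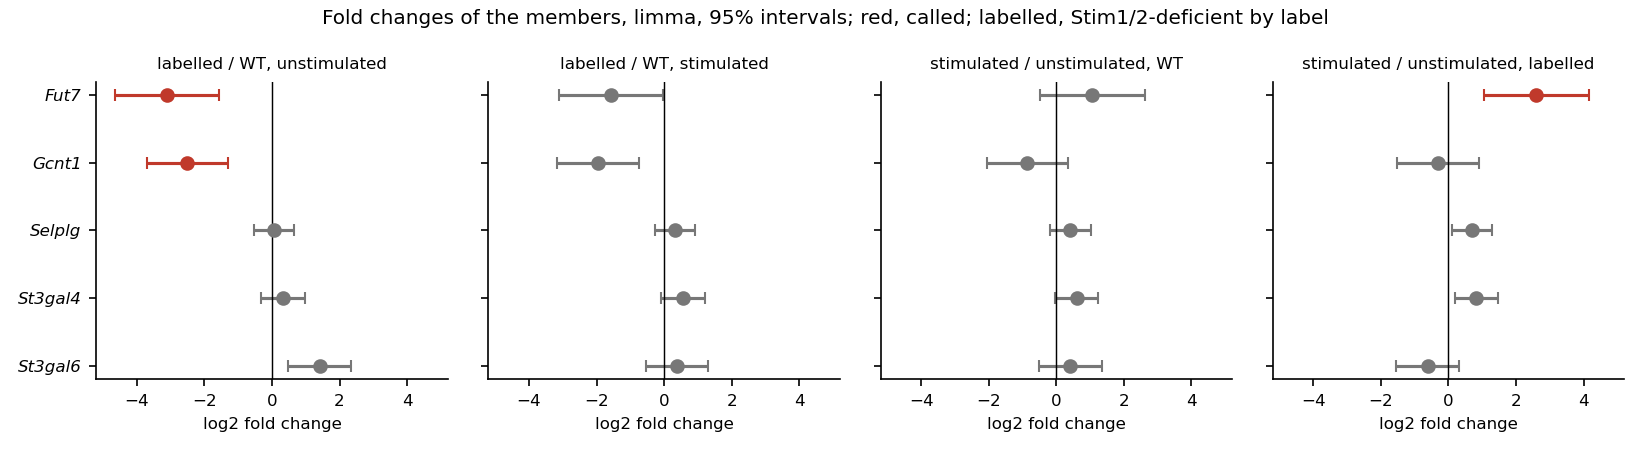
Log2 fold changes with 95% intervals (horizontal axis) of the 5 genes in 4 comparisons of 2 libraries against 2, red where called. Fut7 (-3.11) and Gcnt1 (-2.51) are called in unstimulated cells and Fut7 (2.60) for stimulation of labelled cells.

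**Figure D3:**
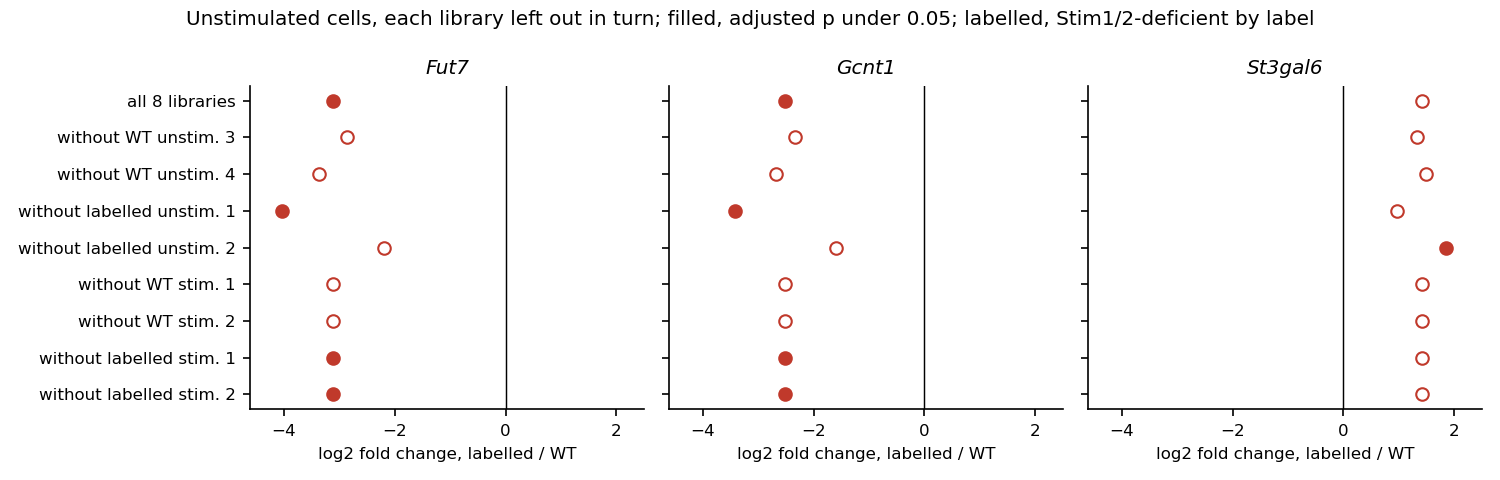
Log2 fold change of labelled over WT unstimulated cells (horizontal axis) for Fut7, Gcnt1 and St3gal6 with all 8 libraries and without each in turn, filled where the limma adjusted p is under 0.05. Fut7 ranges from -4.02 to -2.19, Gcnt1 from -3.42 to -1.60 and St3gal6 from 0.97 to 1.84, and no point crosses 0.

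Selplg, on chromosome 5 from 113817798 to 113832528, encodes the carrier PSGL-1. In unstimulated cells it had 1023 and 799 normalized counts in WT and 1131 and 775 in labelled libraries, which enclosed the WT values. The log2 fold change was 0.05 (SE 0.27, 95% interval -0.54 to 0.64, limma adjusted p = 0.939). After stimulation it had 1003 and 1461 in WT and 1336 and 1734 in labelled libraries, overlapping ranges with a log2 fold change of 0.33 (95% interval -0.26 to 0.92, limma adjusted p = 0.645). Selplg was thus the member with the smallest genotype difference in unstimulated cells.

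The sialyltransferases had higher means in labelled cells, and neither was called. St3gal4, on chromosome 9 from 35046576 to 35116864, was at 220 and 154 normalized counts in the WT and 239 and 223 in the labelled libraries of unstimulated cells. These did not overlap, with a log2 fold change of 0.33 (95% interval -0.32 to 0.97, limma adjusted p = 0.553). Its stimulated libraries had 270 and 290 in WT and 331 and 510 in labelled cells, again apart (log2 fold change 0.55, 95% interval -0.09 to 1.20, limma adjusted p = 0.441). St3gal6, on chromosome 16 from 58469742 to 58524260, was at 68.0 and 76.8 normalized counts in the WT and 262 and 143 in the labelled libraries of unstimulated cells, 2.80-fold more on average. Its log2 fold change of 1.41 (SE 0.42, 95% interval 0.48 to 2.34) did not pass over all genes (unadjusted p = 0.00691, limma adjusted p = 0.0856). After stimulation St3gal6 was at 101.3 and 92.6 in WT and at 182 and 87.8 in labelled libraries, so the ranges overlapped and labelled replicate 1 was the high one (log2 fold change 0.38, limma adjusted p = 0.752).

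The high St3gal6 libraries were also those with the most B cell transcripts. St3gal6 ranked labelled unstimulated replicate 1 (262), labelled stimulated replicate 1 (182), labelled unstimulated replicate 2 (143) and WT stimulated replicate 1 (101.3), and the summed B cell markers in these were 5346, 2208, 1251 and 1357 normalized counts, against 260 to 518 in the other 4. Among 9146 genes averaging 100 or more normalized counts, those whose log2 values followed St3gal6 most closely over the 8 libraries included Mpeg1 (Pearson r = 0.991), which encodes perforin-2 of macrophages and other phagocytes, and Cd180 (0.955), a B cell and myeloid surface protein. Mpeg1 did not follow the macrophage markers in every library. In labelled stimulated replicate 1 it had 348 normalized counts, whereas these markers summed to 753, against 1039 and 897 in stimulated WT libraries. In unstimulated cells 8 of 13 tested macrophage and monocyte markers (median log2 fold change 4.54) and 2 of 12 B cell markers (median 2.96) were called higher, against 1.38% of all genes. In stimulated cells 0 of either list were called higher (medians 0.00 and 0.81), against 0.162% of all genes. Markers of neutrophils, dendritic cells and CD8 T and NK cells had 0 calls in either state but also had higher medians in unstimulated labelled cells, 2.10, 3.31 and 1.77 on the log2 scale. Of the 5 tested dendritic cell markers, 3 lay above both WT libraries and 2, Xcr1 and Zbtb46, below them. Medians for erythroid and endothelial cells were 1.69, from 2 tested genes, and 0.35, from 3 (Pecam1, Selp and Sele). The other endothelial markers, Cdh5, Kdr and Emcn, had 0 to 9.44 normalized counts in the 8 libraries. All 6 tested neutrophil markers were above both WT libraries in both labelled unstimulated ones (26.5% of all genes), with sums over the list of 965 and 427 against 159 and 109 normalized counts. Without labelled unstimulated replicate 1 the log2 fold change of St3gal6 was 0.97, and without labelled unstimulated replicate 2 it was 1.84 and called (limma adjusted p = 0.0467). DESeq2 on 8 libraries called St3gal6 higher as well (adjusted p = 0.0266). The fit without labelled unstimulated replicate 1 still holds replicate 2, which also had more of most macrophage and B cell markers than WT. The part of transcripts of other cells in the St3gal6 result was not tested.

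**Figure D4:**
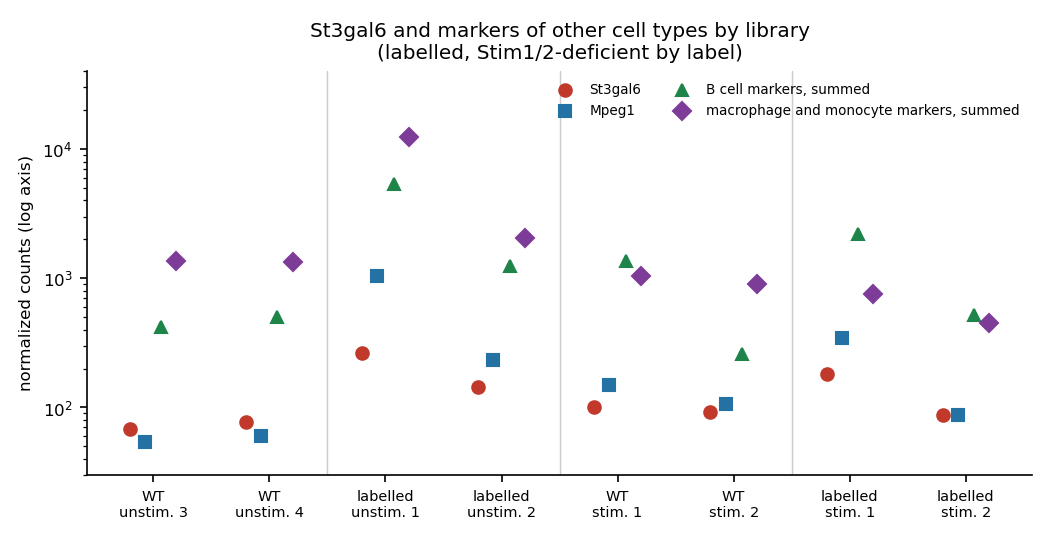
Normalized counts (vertical axis, log scale) of St3gal6, of Mpeg1 and of the summed B cell and macrophage markers in each of the 8 libraries. St3gal6 is highest, at 262, in the labelled library where Mpeg1 (1046) and both sums (5346 and 12369) are highest.

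The genes that followed the other members were of other kinds. Gcnt1 ran closest to Mki67 (r = 0.993), the marker of dividing cells, and then to Rapgef5 and Sh3bgrl (0.993 each), among 147 genes with r of at least 0.9. Mki67 was at 17091 and 13862 normalized counts in WT and 4924 and 1400 in labelled libraries of unstimulated cells, and 8560 and 7417 against 2925 and 913 after stimulation, and like Gcnt1 it was lowest in labelled stimulated replicate 2 and labelled unstimulated replicate 2. Its log2 fold change was -2.55 in unstimulated cells (limma adjusted p = 0.0369) and -2.29 in stimulated cells (limma adjusted p = 0.116), and its part in the Gcnt1 result was not tested. Fut7 ran closest to Slc25a4 (0.993), a mitochondrial ADP/ATP carrier, Xrcc5 (0.988), a subunit of the DNA end-binding protein Ku, and Fam92a (0.988), with 296 genes at 0.9 or more. Selplg followed Tigd2 (0.966), Ganab (0.963), a glucosidase of the endoplasmic reticulum, and Mob3a (0.960), and St3gal4 followed Clcn7 (0.978), a lysosomal chloride transporter, Kat8 (0.975), a histone acetyltransferase, and Rnpepl1 (0.975). At 0.9 or more were 72 genes for Selplg, 94 for St3gal4 and 17 for St3gal6. These coefficients describe 8 libraries that fall into 4 groups, on 2 lanes, and share a size factor per library.

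Between unstimulated and stimulated cells Fut7 rose in labelled cells, and 0 members were called in WT cells. In labelled cells Fut7 went from 7.34 and 1.34 to 37.3 and 17.7 normalized counts, a log2 fold change of 2.60 (SE 0.70, 95% interval 1.05 to 4.15, limma adjusted p = 0.0222), and it was the only one of 5 members called there, with 13.0% of all genes called higher and 12.0% lower (1997 and 1855 genes, but 3791 and 1077 at equal library totals). In WT cells its log2 fold change was 1.07 (95% interval -0.48 to 2.62, limma adjusted p = 0.291), with 10.2% of genes called higher and 13.1% lower (1580 and 2013 genes, 4258 and 974 at equal totals). No member was called, none had an unadjusted p under 0.05, and edgeR and DESeq2 on 8 libraries called 0 as well. Gcnt1 had lower counts in stimulated than in unstimulated WT libraries (log2 fold change -0.85, 95% interval -2.06 to 0.35, limma adjusted p = 0.277). Of the alternatives, only limma and DESeq2 on 4 libraries called this difference. In labelled cells the Gcnt1 counts overlapped (-0.30, limma adjusted p = 0.709). Selplg differed by 0.42 in WT cells (adjusted p = 0.278) and 0.70 in labelled cells (0.0801), and St3gal4 by 0.60 (0.157) and 0.83 (0.0601), all log2 and higher after stimulation. St3gal6 differed by 0.42 in WT cells (0.5) and by -0.61 in labelled cells (0.304). The Fut7 call in labelled cells was lost without labelled unstimulated replicate 2 (log2 fold change 1.68, limma adjusted p = 0.114) or labelled stimulated replicate 1 (2.08, 0.109).

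The genotype difference after stimulation minus that before it, the interaction, was 1.53 for Fut7 on the log2 scale (95% interval -0.66 to 3.72, limma adjusted p = 0.688), 0.55 for Gcnt1 (-1.15 to 2.25), 0.28 for Selplg (-0.56 to 1.12), 0.23 for St3gal4 (-0.68 to 1.14) and -1.03 for St3gal6 (-2.34 to 0.28). limma, edgeR and DESeq2 called 0 members, none had an unadjusted p under 0.05, and limma called 0.0% of all genes in either direction. Over all genes, 17 were called lower and 179 higher without labelled unstimulated replicate 2, and 13 and 36 with DESeq2, and no member was among them. The intervals leave room for a change of several fold in Fut7 between the states.

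Of 77 other genes of the pathway on 6 lists, 75 were in the table and 62 were tested. In unstimulated cells 2 of the 62 were called lower and 0 higher, against 3.35% and 1.38% of all genes, with 31 below and 31 above 0 and a median log2 fold change of 0.00, against -0.01 for all genes. Both labelled libraries lay below both WT libraries for 16 and above for 14, near the 27.1% and 26.5% of all genes. In stimulated cells limma called 0 of the 62, against 0.11% of all genes lower and 0.162% higher (11 had an unadjusted p under 0.05; edgeR called 0 and DESeq2 on 8 libraries 5), with a median of 0.04 against 0.02 for all genes. The called genes were Chst2 and Cd44.

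Among 18 tested glycan and sulfation enzymes beyond the members, 1 was called. Chst2, a sulfotransferase that adds sulfate to N-acetylglucosamine of selectin ligands, was at 842 and 684 normalized counts in WT and 271 and 224 in labelled libraries before stimulation. Its log2 fold change was -1.62 (SE 0.29, limma adjusted p = 0.0189), and after stimulation, with 792 and 759 against 554 and 296, it was -0.93 (limma adjusted p = 0.181). The call was lost without WT unstimulated replicate 3 (adjusted p = 0.253) or 4 (0.0841) or WT stimulated replicate 2 (0.0502). B4galt4, a galactosyltransferase of the branch, had 73.4 and 76.8 in unstimulated WT libraries and 35.6 and 20.03 in labelled ones (log2 fold change -1.45, limma adjusted p = 0.0665). The sulfotransferases of PSGL-1 tyrosines, Tpst1 and Tpst2, and C1galt1 with its chaperone C1galt1c1, which make the core 1 structure, overlapped between genotypes in unstimulated cells. Fut4, the other fucosyltransferase of leukocytes, had 1.34 to 53.2 normalized counts over the libraries, where Fut7 had 1.34 to 94.9. Before stimulation Fut4 was at 11.87 and 5.91 in WT and 22.02 and 1.34 in labelled libraries. After it, Fut4 was at 31.95 and 35.69 in WT and 53.2 and 41.37 in labelled libraries. The latter lay above WT, as for 24.3% of all genes. Fut7 had 37.3 and 17.7 in the same libraries. These counts are not divided by exon length, so they do not rank Fut4 against Fut7.

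Of 14 selectins and other carriers, 9 were tested and 1 was called. Cd44, a hyaluronan receptor that also carries selectin ligands, was at 5502 and 5324 normalized counts in WT and 2559 and 1847 in labelled libraries before stimulation (log2 fold change -1.32, SE 0.32, limma adjusted p = 0.0485). The adjusted p depended on the setting: 0.071 by edgeR, 0.00185 by DESeq2, 0.363 and 0.173 without WT unstimulated replicates 3 and 4, 0.0944 and 0.098 without WT stimulated replicates 1 and 2, and 0.108 without labelled unstimulated replicate 2. After stimulation Cd44 had 4388 and 4411 in WT and 3775 and 1651 in the labelled pair (-0.82, limma adjusted p = 0.29), and without labelled stimulated replicate 1 it was called (-1.41, 0.0155).

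The initiating GalNAc transferases had 0 of 8 tested genes called in either state, with a median log2 fold change of 0.32 in unstimulated and -0.0032 in stimulated cells. Galnt10 had 120 and 160 normalized counts in stimulated WT libraries and 275 and 436 in labelled ones (log2 fold change 1.31, limma adjusted p = 0.0954), and it was called by DESeq2 on 8 libraries (adjusted p = 0.00627), with a replicate block (limma, 0.0484) and without labelled stimulated replicate 1 (limma, 0.0282). Galnt3 differed the other way there, with 80.3 and 82.0 in WT and 44.5 and 5.07 in labelled cells (-2.31, limma adjusted p = 0.322), called without labelled stimulated replicate 1 (0.0477). Before stimulation Galnt3 overlapped between the genotypes (1.16, limma adjusted p = 0.524), and labelled replicate 1 was the high library, at 117. Galnt4 had 133 and 133 against 208 and 371 before stimulation (1.06, limma adjusted p = 0.0901), called by DESeq2 on 8 libraries (0.044) and by limma without labelled unstimulated replicate 1 (0.0331). The 16 tested genes that supply nucleotide sugars and sulfate donors had 0 calls and medians of -0.03 and -0.10. Slc35a3, a Golgi transporter of UDP-N-acetylglucosamine, was at 1400 and 1464 against 900 and 908 in unstimulated cells (-0.66, limma adjusted p = 0.0625). Fuk, the kinase that salvages fucose, had 41.0 and 57.6 against 129 and 85.5 (1.10, limma adjusted p = 0.248). The 4 proteins that bind the PSGL-1 tail, ezrin, moesin, radixin and Snx20, had 0 calls and medians of -0.16 and 0.32.

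Of 7 transcription factors known to act on Fut7 or Gcnt1, 0 were called in either state. Tbx21 encodes T-bet, an activator of both genes in T helper 1 cells. In unstimulated cells it had 39.9 and 42.8 normalized counts in WT and 34.6 and 6.68 in the labelled pair (log2 fold change -1.36, limma adjusted p = 0.238). Without labelled unstimulated replicate 1 its log2 fold change there was -2.46. Its stimulated libraries had 528 and 467 in WT and 438 and 203 in labelled cells. Gata3, which represses Fut7 in T helper 2 cells, had 1648 and 1498 against 784 and 1008 in unstimulated cells (-0.82, limma adjusted p = 0.0569) and 1363 and 1317 against 799 and 603 after stimulation (-0.95, adjusted p = 0.0854). Klf2, which keeps T cells quiescent, had 124 and 185 normalized counts in stimulated WT libraries and 236 and 538 in labelled ones (1.23, adjusted p = 0.161). Before stimulation Klf2 had 745 and 600 in WT and 1114 and 1366 in labelled libraries. Gata3 was lower in both labelled libraries of each state, as for 27.1% of all genes before and 23.1% after stimulation. Klf2 was higher in them, as for 26.5% and 24.3%, so such separation is common. Neither passed the limma test on all 8 libraries as deposited. DESeq2 on 8 libraries called Gata3 lower in both states (adjusted p = 0.0207 and 0.0115) and Klf2 higher after stimulation (0.0152). limma called Gata3 in unstimulated cells at a pseudocount of 5 (adjusted p = 0.0498), at a mean of at least 100 (0.0442) and without labelled unstimulated replicate 2 (0.0252) or labelled stimulated replicate 1 (0.0444) or 2 (0.0445). In stimulated cells it called Gata3 with a replicate block (0.0312), with quantile normalization (0.0343) and without labelled unstimulated replicate 1 (0.0311) or 2 (0.0337) or labelled stimulated replicate 1 (0.0318), and Klf2 without the last of these (0.0166).

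**Figure D5:**
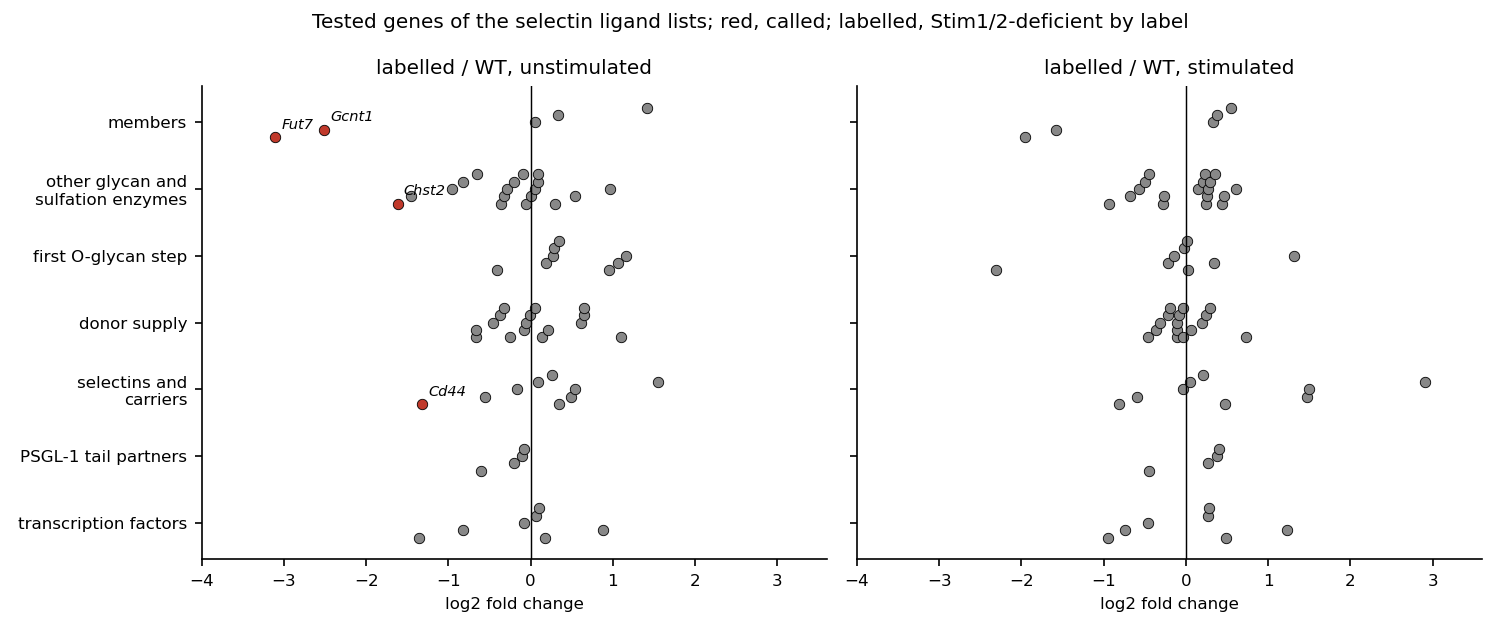
Log2 fold change of labelled over WT cells (horizontal axis) for the 5 members and the 62 tested genes of 6 selectin ligand lists, 1 point a gene, red where called. In unstimulated cells Fut7, Gcnt1, Chst2 and Cd44 are called, all lower, and in stimulated cells no gene is.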

How the data were processed

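Messenger RNA of 8 Treg cell libraries was sequenced on Illumina machines, 2 libraries for each of 4 groups. The sources differ on how reads were processed: the submitters' processing notes name bcl2fastq 1.8.4, STAR 2.7, DESeq2 and mm10, whereas the study's methods describe Bowtie alignment to NCBIM37, removal of PCR duplicates with Picard and counting with HTSeq before DESeq2. Strand use in counting is not given in the sources used here, so reads of overlapping genes may be shared. The deposited signal is, per gene, the number of reads after division by a size factor of each library, rounded by the authors to 2 decimals, and whole reads were recovered for 100% of values. Depth was 11851853 to 16306540 reads per library, and 3 reads equal 2.28 to 4.43 normalized counts.

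limma 3.58.1 (trend, R 4.3.3) was fitted to log2(value + 1) of genes averaging 10 or more normalized counts, in 1 model of the 4 groups with 5 two-sided contrasts, Benjamini-Hochberg adjusted within each contrast over all tested genes. Calls needed over 1.5-fold at an adjusted p under 0.05. DESeq2 1.42.0 and edgeR 4.0.16 (quasi-likelihood) on recovered reads were alternatives, since the values were deposited normalized. Other alternatives were pseudocounts of 0.1 and 5, every gene above 0, a mean of at least 100, equal totals, equal upper quartiles, quantile normalization, fits to 4 libraries, a replicate block, a 2-fold or unadjusted threshold and each library left out. limma was tested on simulated data. Fold changes on the log2 scale understate changes of low genes. Per the study's methods each sample was a pool of mice. Whether a WT and a labelled library came from 1 pool is not given in the sources used here, and p-values measure the spread between these libraries. Counting intervals cover counting error only.

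The 5 members, the pathway and marker lists and the tests were chosen with earlier results of these data known. All members are named. Of the pathway lists, genes called in a genotype contrast are named, and of the others some of the 3 with the largest change of a list in a genotype contrast, and for each member the 3 genes with the highest Pearson r. Of the genes so named, 2 are not reported here. Tpst1, Tpst2, C1galt1, C1galt1c1, Fut4 and the PSGL-1 tail partners were named for their roles, after their values were seen. Markers of neutrophils, CD8 T and NK cells, erythroid, dendritic and endothelial cells were also summed. Positions and upstream windows are from RefSeq on GRCm38.p6, the build of mm10. Exon lengths are unions of exons of GENCODE vM1. Of the 5 members, 4 matched a promoter window.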

Additional observations from a re-analysis of the deposited data

How the results depend on the processing

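Of 520 alternative values of the members' fold changes, 465 kept direction and side of the threshold, 24 newly passed it, 21 no longer passed and 10 changed sign. The cause was not tested. In unstimulated cells the members called as differing by genotype were 2, and they were 0 with every gene above 0, with edgeR and with limma on 4 libraries, 1 with a mean of at least 100, where Fut7 was not tested, 3 with DESeq2 on 8 libraries and at an unadjusted p, where St3gal6 joined them, and 0 to 2 with a library left out. In stimulated cells they were 0, but 1 with DESeq2 on 8 or on 4 libraries, 2 at an unadjusted p and 0 to 1 with a library left out (Gcnt1 without labelled unstimulated replicate 1, adjusted p = 0.0336, or 2, 0.0347, or labelled stimulated replicate 1, 0.0392). For stimulation of labelled cells 1 became 3 at equal totals and at an unadjusted p, 2 with DESeq2 on 8 libraries, 0 with limma or DESeq2 on 4 libraries, and 0 to 2 with a library left out: 0 without labelled unstimulated replicate 2 and 2, Fut7 and Selplg, without labelled unstimulated replicate 1, whereas without labelled stimulated replicate 1 it was St3gal4 in place of Fut7. For stimulation of WT cells 0 became 2 at equal totals and 1, Gcnt1, with limma or DESeq2 on 4 libraries. Equal totals moved the median of all genes to 0.52 in WT and 0.35 in labelled cells, from 0.01 and -0.03. No alternative called an interaction for a member, including all 8 fits with a library left out.

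Other genes of the pathway called in unstimulated cells were 2, and 1 at a pseudocount of 0.1, with every gene above 0, at equal totals, at equal upper quartiles and with edgeR, 4 at a mean of at least 100, 6 with DESeq2 on 8 libraries, 11 at an unadjusted p, and 0 to 10 with a library left out: 0 without WT unstimulated replicate 3 or 4 or WT stimulated replicate 2, 1 without WT stimulated replicate 1, 5 without labelled unstimulated replicate 1 and 10 without labelled unstimulated replicate 2. In stimulated cells 0 became 2 with quantile normalization, 5 and 4 with DESeq2 on 8 and 4 libraries, 9 at an unadjusted p, and 0 to 9 with a library left out: 2 without labelled unstimulated replicate 1, 1 without labelled unstimulated replicate 2 and 9 without labelled stimulated replicate 1. Over all genes, those called in stimulated cells were 17 lower and 25 higher as deposited, 100 and 102 with quantile normalization, 33 and 49 at a mean of at least 100, 35 and 39 at a pseudocount of 5, 202 and 191 with a replicate block and 0 and 1 with edgeR.

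Changes of sign concerned values that were not called. With a library left out, the Gcnt1 interaction ranged from -0.36 to 1.46, the Gcnt1 difference with stimulation of labelled cells from -1.22 to 0.61 (0.083 at equal totals), the Selplg genotype difference in unstimulated cells from -0.22 to 0.32, the St3gal4 interaction from -0.084 to 0.54 and the St3gal6 genotype difference in stimulated cells from -0.14 to 0.90.

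The stimulated groups share replicate numbers 1 and 2, as do both labelled groups, but no label says that a number marks a shared pool, and deviations of same-numbered libraries correlated at 0.167 and 0.257. With a replicate block the members called by genotype in stimulated cells were 1 instead of 0 (Gcnt1, adjusted p = 0.0285), the other pathway genes 3 instead of 0, and the members called with stimulation of labelled cells 1, as without it.

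With 2 libraries a group and 1 to 41 reads of Fut7 in an unstimulated library, moderate differences could not be detected. Calls near the threshold moved with libraries of other groups too, since all 8 share 1 estimate of the spread.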
